A study of Mus musculus with 6 samples.

Results

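The genes described here are 9 transcripts that mark the mature neutrophil, the short-lived granulocyte that leaves the bone marrow to engulf and kill bacteria. They are Mmp8, Mmp9, Retnlg, Cd177, Padi4, Itgam, Fpr1, Fpr2 and Mmp25, taken as a fixed list of symbols from a table of 24965 genes. All 9 were found in the table and all 9 passed the filter on low values. Donor cells in all 6 libraries came from bone marrow of young adult CD45.2+ mice. The study's methods name mice of both sexes for all its experiments and do not give the sex of each library's donors. The cells were sorted 6 h after intravenous transfer (by a retro-orbital route in the labels and the tail vein in the series' design). Their CD45.1+ recipients had received a split dose of 9 Gy of irradiation. The donors were wild-type (WT, 3 libraries) or Hemgn-/- (3 libraries), a germline disruption made with zinc finger nucleases on a C57BL/6 background, so the disruption was carried by all donor cells and no Cre driver was involved. The sorted population is given as lineage-negative Sca-1+ cells in the sample labels and as LSK cells (lineage-negative, Sca-1+, c-Kit+) in the study's methods, and whether a library came from 1 recipient or several was not given in the sources used here. The question asked of these genes was how much of their RNA the libraries held, and whether it differed between Hemgn-/- and WT donor cells.

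A neutrophil fills its granules in a fixed order while it matures. Primary granules with myeloperoxidase and elastase form in the promyelocyte, secondary granules with lactoferrin in the myelocyte, and tertiary granules with gelatinase in the band cell, after which the cell acquires the receptors for chemokines and bacterial peptides. The 9 genes belong to the secondary granule step and to later ones. Mmp8 encodes the neutrophil collagenase of secondary granules and Mmp9 the gelatinase of tertiary granules, while Mmp25 encodes a metalloproteinase tethered to the membrane. Retnlg encodes a secreted peptide of the resistin family. Cd177 is a surface glycoprotein that is also stored in secondary granules, and Itgam (CD11b) is the alpha chain of the integrin Mac-1. Fpr1 and Fpr2 are receptors for formylated bacterial peptides, and Padi4 converts arginine to citrulline in histones when neutrophil extracellular traps form.

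In the GENCODE M21 annotation of GRCm38, the build listed in the submitters' processing notes, all 9 are protein-coding genes. Fpr1 (ENSMUSG00000045551) spans chromosome 17, minus strand, from 17876471 to 17883940, and Fpr2 (ENSMUSG00000052270) starts 3883 bases further on, from 17887824 to 17893952 on the plus strand, so the 2 receptors are transcribed away from each other. Mmp25 (ENSMUSG00000023903) lies on the same chromosome from 23628311 to 23645277. Mmp8 (ENSMUSG00000005800) lies on chromosome 9 from 7558456 to 7568485, Mmp9 (ENSMUSG00000017737) on chromosome 2 from 164940780 to 164955850 and Retnlg (ENSMUSG00000022651) on chromosome 16 from 48872621 to 48874496. Cd177 (ENSMUSG00000052212) lies on chromosome 7 from 24743983 to 24760311, Itgam (ENSMUSG00000030786) on chromosome 7 from 128062640 to 128118491, and Padi4 (ENSMUSG00000025330) on chromosome 4 from 140745865 to 140774236.

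The promoters of 3 members are shown because these genes carry the results below. Mmp8 was the most abundant member and stayed level, Cd177 was the one that fell, and Fpr1 the one that rose. Each sequence runs 5′ to 3′ on the gene's strand from 250 bases before the annotated start to 50 bases after it, from RefSeq on GRCm38.p6, at chr9:7558179-7558478 on the plus strand for Mmp8, chr7:24760262-24760561 on the minus strand for Cd177 and chr17:17883890-17884189 on the minus strand for Fpr1. Capitals mark matches on either strand to TTGCNNAA (a C/EBP motif) or GAGGAAG (a PU.1 motif), named for factors that drive granulocyte genes.
Mmp8: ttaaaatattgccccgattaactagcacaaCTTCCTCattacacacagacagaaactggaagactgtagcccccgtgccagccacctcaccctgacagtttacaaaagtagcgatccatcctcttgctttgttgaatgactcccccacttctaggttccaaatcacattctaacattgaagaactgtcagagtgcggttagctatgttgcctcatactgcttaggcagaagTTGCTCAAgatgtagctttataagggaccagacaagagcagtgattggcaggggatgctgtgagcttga
Cd177: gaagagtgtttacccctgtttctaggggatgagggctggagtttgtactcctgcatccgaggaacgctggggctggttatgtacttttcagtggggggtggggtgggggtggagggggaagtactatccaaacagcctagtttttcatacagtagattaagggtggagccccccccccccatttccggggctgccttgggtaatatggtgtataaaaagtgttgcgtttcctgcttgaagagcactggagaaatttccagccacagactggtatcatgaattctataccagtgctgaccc
Fpr1: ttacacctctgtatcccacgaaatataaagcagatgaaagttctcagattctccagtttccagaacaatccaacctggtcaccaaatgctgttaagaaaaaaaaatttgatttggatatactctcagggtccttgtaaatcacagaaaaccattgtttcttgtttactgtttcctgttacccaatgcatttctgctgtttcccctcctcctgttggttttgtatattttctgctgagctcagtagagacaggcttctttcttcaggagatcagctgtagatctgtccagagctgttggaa
RefSeq promoters were held for 8 of the 9 members, without Mmp9. The C/EBP motif was found in 2 of these 8, 19 bases before the start of Mmp8 and 246 bases before that of Retnlg, against 10.8% of 32851 promoters in the genome. The PU.1 motif was found in 3 of the 8, those of Mmp8, Itgam and Mmp25, against 13.6% of all promoters. In Mmp8, the one member with both, the matches lay 19 and 220 bases before the start and did not overlap. Neither set of letters was present in the windows of Cd177, Fpr1, Fpr2 and Padi4.

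Values are FPKM, that is fragments per kilobase of gene and per 1000000 fragments of the library, as deposited by the authors. They are set per length, so levels of different genes can be compared roughly within a library, but biases of amplified cDNA that differ by gene are not removed. The depth, read from the size of the smallest FPKM steps in each library, was 23668015 to 28897360 fragments per library. The members were read from 5160 to 194603 fragments each per library, so counting error of fragments alone was small beside the spread between libraries. Fragments of amplified cDNA are not independent molecules, so the error of counting molecules is not known from them. RNA of the targeted gene was lower under the Hemgn-/- label, with Hemgn at 5.64, 2.96 and 4.68 FPKM in WT and 0.75, 0.91 and 1.60 FPKM in Hemgn-/- libraries (adjusted p = 0.0114 from limma), a call that was lost without WT replicate 3 (adjusted p = 0.0503). The study describes the disruption as a small deletion in the coding sequence, so the RNA level is not a direct check of it. Erythroid genes were also lower in these libraries, and their part in the Hemgn result was not tested.

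Of the 9 transcripts, Mmp8, Cd177, Retnlg and Mmp9 were among the most abundant RNAs of these sorted progenitor libraries. The 9 genes summed to 7194 to 7712 FPKM in WT and 6933 to 7156 FPKM in Hemgn-/- libraries, which is 1.94% to 2.06% and 1.99% to 2.06% of all FPKM. Mmp8 ranked 8 or 9 among all 24965 genes in every library, Cd177 10 to 21, Retnlg 21 to 27 and Mmp9 26 to 36. The receptors Fpr1 and Fpr2 ranked 151 to 209 and 190 to 286, and the lowest member, Itgam, between 660 and 866. The products of Mmp8 and Cd177, the highest members, are stored in secondary granules, so the sum does not set mature cells apart from earlier ones.
The markers of the labelled population were far lower. Kit, the stem cell factor receptor used in the LSK gate, was at 5.50 to 7.24 FPKM, Ly6a (Sca-1) at 8.27 to 17.26 FPKM and Cd34 at 7.23 to 11.88 FPKM. A list of 10 hematopoietic stem and progenitor genes summed to 35.9 to 41.8 FPKM in WT and 43.2 to 51.7 FPKM in Hemgn-/- libraries. Lineage cocktails for mouse marrow usually hold antibodies against CD11b and Gr-1, and the study's antibody list includes biotin-labelled ones against both. That list does not say which antibodies were used to sort these libraries. CD11b and Gr-1 are the products of Itgam and of Ly6g and its relatives, yet Itgam stood at 54.05 to 69.97 FPKM and Ly6g at 249.6 to 434.2 FPKM. How neutrophil RNA came to be in the sorted samples was not tested. In bulk samples, fewer cells of a type and less RNA per cell cannot be told apart.

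**Figure D1:**
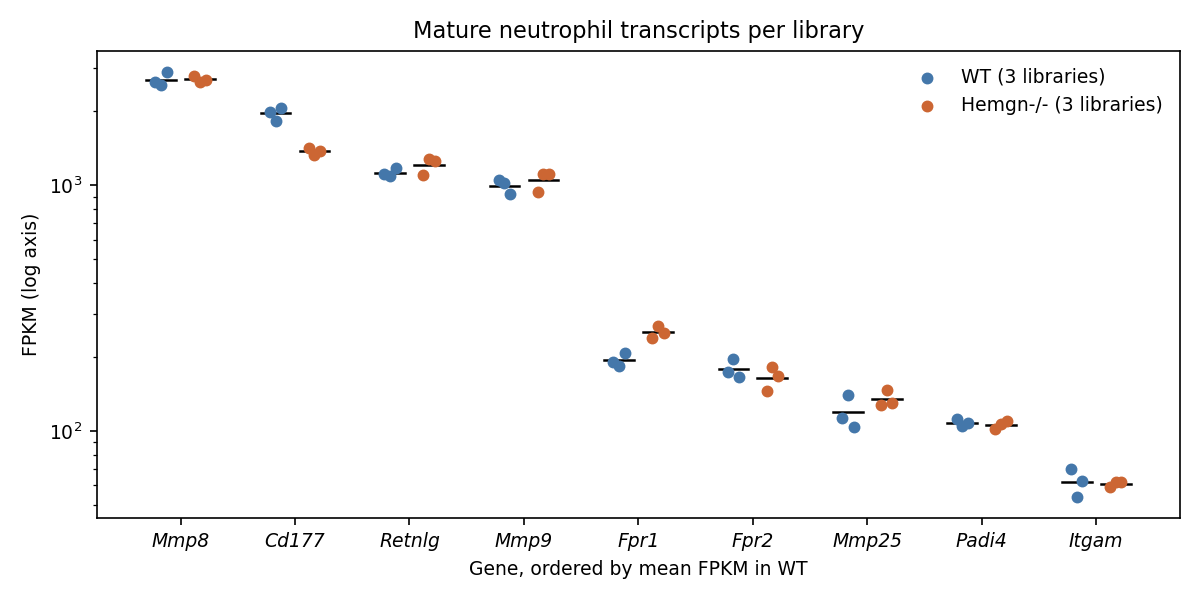
FPKM of the 9 mature neutrophil genes in each library on a log axis, with genes ordered by their WT mean, 3 WT and 3 Hemgn-/- points per gene and a line at each group's mean. Levels run from WT means of 2696 FPKM for Mmp8 to 62.2 FPKM for Itgam, and the 2 genotypes are apart for Cd177 and Fpr1.

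The order of the levels was nearly the same in both genotypes. In WT libraries it ran Mmp8, Cd177, Retnlg, Mmp9, Fpr1, Fpr2, Mmp25, Padi4 and Itgam, and the Hemgn-/- means gave the same order. In WT the libraries of neighbours overlapped for Fpr1 and Fpr2 and for Mmp25 and Padi4. In Hemgn-/- they overlapped for Retnlg and Mmp9 and for Fpr2 and Mmp25, while Fpr1 now lay above Fpr2 in every library.
The last place of Itgam is uncertain. The annotated gene Gm49368 covers 3450 of its 5024 exon bases (68.7%) on the same strand, and Gm49368 itself was listed at no more than 0.24 FPKM. How fragments in shared exons were assigned is not given in the sources used here. Of the 75-base stretches of the annotated transcripts, 3.58% of those of Cd177 recur in BC049730 or Gm4763, and 20.9% of those of Fpr2 in Fpr3 or Gm5966, whereas 6 members have none. Fpr2 also overlaps Fpr3 by 48 exon bases on the same strand, so fragments of Fpr2 could be split with its relatives, which bears on its level and on ratios to it.

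Between genotypes, 7 of the 9 members did not pass the test, Cd177 fell and Fpr1 rose. The test was limma on log2(FPKM + 1) over the 13739 genes above 1 FPKM in at least 1 library, with Benjamini-Hochberg adjustment, and fold changes are Hemgn-/- minus WT. Of all genes tested, 4.37% were higher and 2.09% lower at an adjusted p under 0.05, 6.46% in all, and 2 of 9 genes are too few to be set apart from that share. At the study's own thresholds of an unadjusted p under 0.05 and 1.5-fold, 0 of the 9 passed in limma against 6.83% of all genes, with 2 under an unadjusted 0.05 against 21.4%. The median log2 fold change of the 9 was 0.0065, beside 0.087 over all genes tested.

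**Figure D2:**
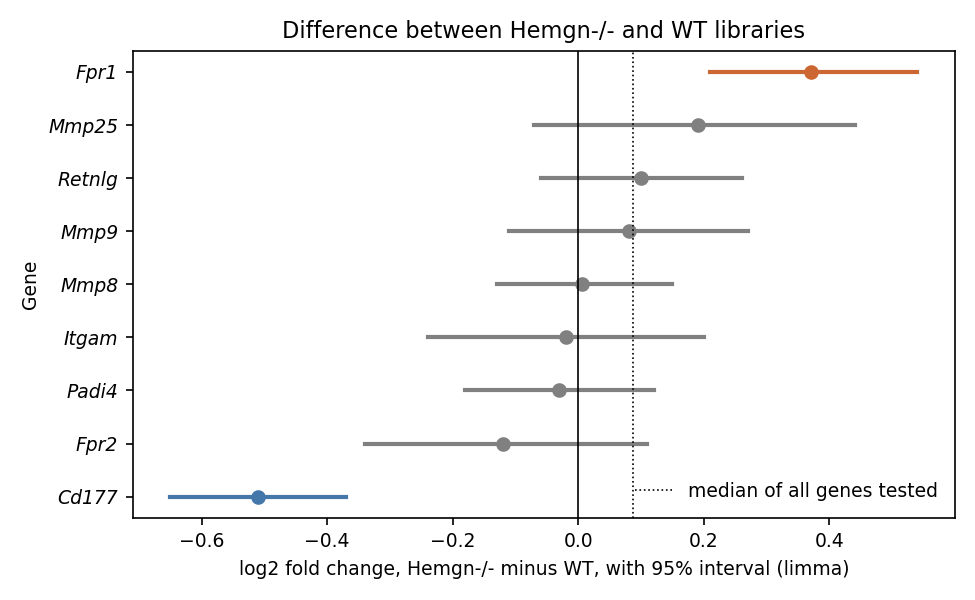
Log2 fold change of each member with its 95% interval from limma, where 0 is no difference and the dotted line is the median of all genes tested, 0.087. The intervals of Cd177 and Fpr1 lie on opposite sides of 0, and those of the other 7 genes include it.

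Cd177, a surface glycoprotein held by a lipid anchor, was at 1987, 1836 and 2075 FPKM in WT and 1424, 1331 and 1380 FPKM in Hemgn-/- libraries. Every Hemgn-/- library lay below every WT library, a separation that 27.4% of all genes tested showed in either direction. The mean fell from 1966 ± 121 to 1378 ± 46.7 FPKM (SD, n = 3 each). On the log2 scale this was −0.51 with a standard error of 0.061 (limma, adjusted p = 0.00257). The direction held in all 15 alternatives, and the call in 13 of them. It was lost without the filter on low values (adjusted p = 0.0518) and without the variance trend (adjusted p = 0.0544), and over the alternatives the adjusted p ran from 8.77e-05 to 0.0544.
Mmp8, a gene of the same abundance class, was at 2631, 2561 and 2895 FPKM in WT and 2796, 2628 and 2691 FPKM in Hemgn-/- libraries. The groups overlapped, and the log2 fold change was 0.0065 with a 95% interval from −0.13 to 0.15 (adjusted p = 0.963 from limma). Set against Mmp8 in the same library, which removes any single scale factor per library, Cd177 stood at 0.755, 0.717 and 0.717 in WT and at 0.509, 0.506 and 0.513 in Hemgn-/- libraries. These ratios did not overlap. The exact permutation test gave a two-sided p of 0.1, the smallest that 3 against 3 allows. No ratio in this report was planned, and this one and the next were chosen after the values were seen.

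Fpr1 was at 191.4, 184.1 and 207.8 FPKM in WT and 240.2, 266.8 and 249.5 FPKM in Hemgn-/- libraries, without overlap. Its mean rose from 194 ± 12.2 to 252 ± 13.5 FPKM (SD, n = 3 each), or by 0.37 on the log2 scale with a standard error of 0.071 (limma, adjusted p = 0.0187). This call was less firm than that of Cd177. The direction held in all 15 alternatives but the adjusted p was under 0.05 in 9, ranging from 0.00491 to 0.117, and it was 0.07 after median-ratio scaling. Leaving out WT replicate 1 gave 0.0721, and leaving out the second or the third Hemgn-/- library gave 0.0625 or 0.0771.
Its neighbour and paralog Fpr2 was at 173.3, 197.2 and 165.8 FPKM in WT and 145.1, 182.1 and 168.1 FPKM in Hemgn-/- libraries. These groups overlapped, with a log2 fold change of −0.12 and a 95% interval from −0.34 to 0.11 (adjusted p = 0.546 from limma). Within a library, Fpr1 stood at 1.10, 0.933 and 1.25 times Fpr2 in WT and at 1.66, 1.47 and 1.48 times Fpr2 in Hemgn-/- cells. The ratio was thus higher in each of the 3 Hemgn-/- libraries than in any WT library (exact permutation p = 0.1, two-sided). Fpr3, the next member of the cluster, was listed at 0 in 5 libraries and at 0.72 FPKM in Hemgn-/- replicate 2.
Monocytes also carry Fpr1, Fpr2 and Itgam, and some monocyte markers moved with Fpr1. Of 12 monocyte and macrophage genes tested, 5 were higher and 1 lower in Hemgn-/- libraries, among them Csf1r (22.74, 21.49 and 24.20 against 33.52, 29.70 and 34.92 FPKM) and Ccr2 (16.40, 15.27 and 15.50 against 35.22, 28.16 and 34.65 FPKM). Ly6c2 was not called, at 293.6, 326.9 and 269.4 FPKM in WT and 216.5, 296.4 and 241.4 FPKM in Hemgn-/- libraries, and the one lower gene was Lyz2. None of the 12 was at 0. Their sum was 23190 to 25886 FPKM in WT and 16785 to 20905 FPKM in Hemgn-/- libraries, nearly all of it from the Lyz2 transcript, which neutrophils also express, and without Lyz2 it was 634 to 666 and 605 to 700 FPKM. Their part in the Fpr1 result was not tested.

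**Figure D3:**
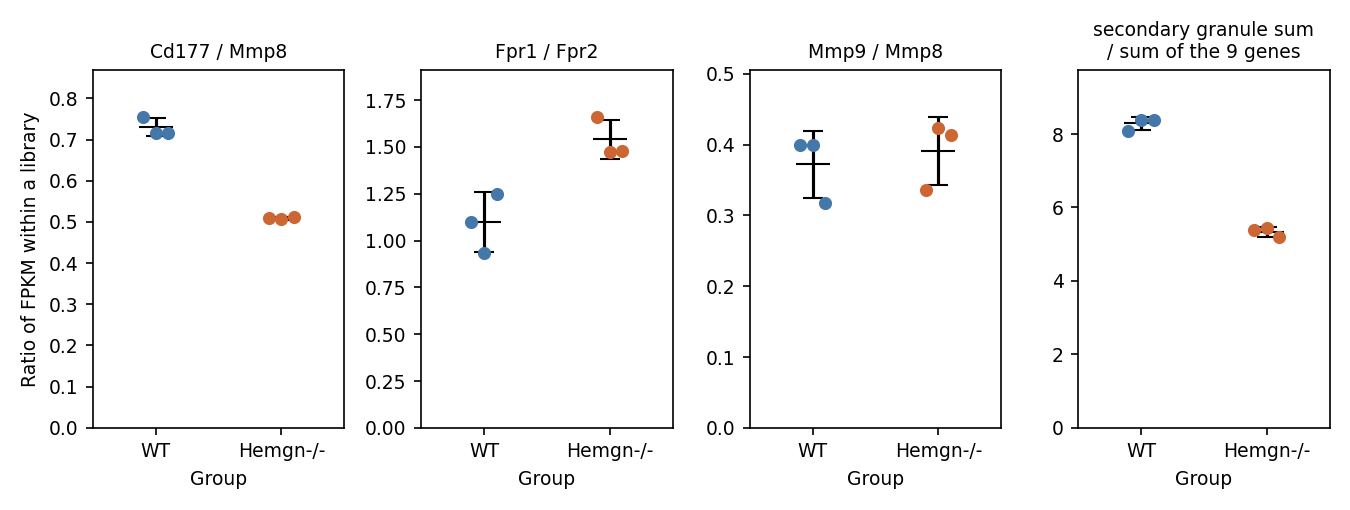
Ratios of FPKM within each library, which a single scale factor per library cannot change, with 3 points per group, a dash at the mean and bars of 1 SD. Cd177 over Mmp8 and the secondary granule sum over the sum of the 9 genes are lower in Hemgn-/- libraries, Fpr1 over Fpr2 is higher, and Mmp9 over Mmp8 overlaps between the groups.

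The metalloproteinases did not pass the test. Mmp9 was at 1052, 1024 and 919.4 FPKM in WT and 938.5, 1114 and 1110 FPKM in Hemgn-/- libraries (95% interval of the log2 fold change −0.11 to 0.27, adjusted p = 0.639 from limma). Mmp25 was at 113.3, 140.4 and 104.2 FPKM in WT and 127.8, 147.0 and 130.5 FPKM in Hemgn-/- libraries, with the widest interval of the 9 genes, −0.07 to 0.44 (adjusted p = 0.391). Mmp9 stood at 0.372 ± 0.0475 of Mmp8 in WT and 0.391 ± 0.0481 in Hemgn-/- libraries (SD, n = 3 each), so the ratio of gelatinase to collagenase transcripts overlapped between genotypes.
These 3 genes were the only abundant members of their family. Of 22 other metalloproteinases and their inhibitors, 7 were tested and 0 passed in limma, with 0 also at an unadjusted p under 0.05. Among them the inhibitor Timp2 was highest, at 8.49 to 10.56 FPKM, and no protease exceeded the 3.74 FPKM of Mmp13 in Hemgn-/- replicate 3.

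Retnlg was at 1116, 1091 and 1174 FPKM in WT and 1100, 1278 and 1256 FPKM in Hemgn-/- libraries, with overlap (log2 fold change 0.10, 95% interval −0.06 to 0.26, adjusted p = 0.456 from limma). Padi4 varied least between WT libraries, at 111.4, 105.2 and 107.8 FPKM, and was at 101.8, 106.8 and 109.5 FPKM in Hemgn-/- libraries (95% interval −0.18 to 0.12, adjusted p = 0.84). The other peptidylarginine deiminases were low, the highest being Padi2 at 2.37 to 3.44 FPKM in WT and 4.20 to 4.31 FPKM in Hemgn-/- libraries (adjusted p = 0.105). Of 12 relatives of Padi4, the formyl peptide receptors and Retnlg, 3 were tested and 0 passed in limma, 2 of them with an unadjusted p under 0.05.
Itgam was at 69.97, 54.05 and 62.56 FPKM in WT and 59.27, 62.20 and 61.81 FPKM in Hemgn-/- libraries, overlapping (95% interval −0.24 to 0.20, adjusted p = 0.939 from limma). Its partner chain Itgb2 was at 672.8 to 696.8 FPKM in WT and 615.0 to 676.5 FPKM in Hemgn-/- libraries (adjusted p = 0.534). Of the beta2 integrin genes and their activators, 6 were tested and 1 was lower, Itgb2l (192.3, 180.3 and 193.8 against 150.1, 139.4 and 156.9 FPKM, adjusted p = 0.0231).

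The members did not vary as a block. Across the 6 libraries the correlation of each gene's log2 value with the mean profile of the other 8 ran from −0.502 for Mmp8 to 0.712 for Retnlg, a description over libraries that share 2 genotypes. The genes closest to the mean standardised profile of all 9, among 11643 compared, were Snx15 (Pearson r = 0.988), Bmf (0.987), Traf7 (0.985), Haus4 (0.985) and Gm23656 (0.984), over 6 libraries. The highest of so many correlations over 6 libraries can be this large by chance. These names are therefore a description, and whether the genes vary with neutrophil RNA was not tested.

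Other neutrophil genes, grouped by the step at which they are made, gave different counts. Of 44 outside the 9, 7 were higher and 10 lower in Hemgn-/- libraries. The split moved with the scaling, to 4 and 13 with median-ratio scaling and to 12 and 8 with equal FPKM totals.
Secondary granule genes held most of the lower calls. Of 10, 6 were lower and 0 higher (1 had a fold change above 0, and 9 had an unadjusted p under 0.05 in limma), with a median log2 fold change of −0.61. Ngp, a granule protein and the most abundant of them, was at 43176, 44761 and 46692 FPKM in WT and 26946, 27961 and 26488 FPKM in Hemgn-/- libraries (adjusted p = 0.000131). Ltf (lactoferrin) fell by 0.67 on the log2 scale, Camp (the cathelicidin precursor) by 0.92 and Fcnb (ficolin B) by 1.52, the last from 96.5 ± 4.74 to 33.1 ± 2.90 FPKM (SD, n = 3 each). The sum of the 10 was 8.29 ± 0.176 times the sum of the 9 mature genes in WT and 5.34 ± 0.134 times in Hemgn-/- libraries, without overlap (exact permutation p = 0.1, two-sided). Most of the sum of the 10, which was 60197 to 64686 FPKM in WT and 37145 to 38731 FPKM in Hemgn-/- libraries, came from Ngp. The highest of the 9 were Mmp8 and Cd177, whose products are also stored in secondary granules, so the ratio does not set that step apart from later ones.
Of 5 primary granule genes 3 were lower, Elane (neutrophil elastase, log2 fold change −0.73), Ms4a3 (−0.76) and Mpo (myeloperoxidase, −0.31), and 0 were higher, with 4 under an unadjusted 0.05. The calls of Elane, Camp and Fcnb held in all 15 alternatives. That of Mpo held in 7, with an adjusted p from 0.00916 to 0.154, and those of Ngp and Ltf in 13. The log2 fold change of Ltf ran from −0.77 to −0.20 and that of Ngp from −0.83 to −0.0, with an adjusted p of up to 1.0 for Ngp. The end near 0 for Ngp arose under quantile normalization. That step gives a gene that keeps its rank the same value in every library, so it cannot show a change of such a gene.

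Among surface receptors the calls were in the other direction. Of 12, 5 were higher and 0 lower in Hemgn-/- libraries (8 with an unadjusted p under 0.05 in limma), with a median log2 fold change of 0.25. One of those 8, the leukotriene receptor Ltb4r1, had a log2 fold change below 0 (151.2, 149.9 and 152.7 against 99.42, 135.1 and 133.8 FPKM, adjusted p = 0.158). Cxcr2, the chemokine receptor with which neutrophils leave the marrow, rose from 277.2, 280.0 and 275.4 to 423.2, 412.3 and 409.6 FPKM (adjusted p = 0.000663). Clec4d (a C-type lectin) rose by a log2 fold change of 0.44, Csf3r (the G-CSF receptor) by 0.37 and Selplg (an adhesion glycoprotein) by 0.33. The call of Cxcr2 held in all 15 alternatives, that of Csf3r in 10, Clec4d in 8 and Selplg in 7. Without Hemgn-/- replicate 3, the 44 genes gave 3 higher and 6 lower calls in all. The sum of the 12 receptors was 0.267 ± 0.00903 of the sum of the 9 mature genes in WT and 0.337 ± 0.00271 in Hemgn-/- libraries, again without overlap (exact permutation p = 0.1).
Of 11 tertiary granule and late genes 2 were higher and 0 lower. The 8 with an unadjusted p under 0.05 went both ways, with Wfdc21, Trem3 and Lrg1 at log2 fold changes of −0.93, −0.30 and −0.20. The called genes were Asprv1, an aspartic protease (210.1, 226.1 and 199.6 against 399.7, 436.1 and 431.5 FPKM, adjusted p = 0.000131), and Il1b (interleukin 1 beta, 190.4, 197.1 and 166.5 against 248.9, 323.9 and 274.4 FPKM, adjusted p = 0.0125). Of 6 genes of the NADPH oxidase 1 was lower, Cybb, at 619.2, 625.8 and 599.0 FPKM in WT and 473.2, 445.9 and 481.4 FPKM in Hemgn-/- libraries (adjusted p = 0.00531). Medians and counts of the 6 lists are descriptions, and no difference between lists was tested.

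**Figure D4:**
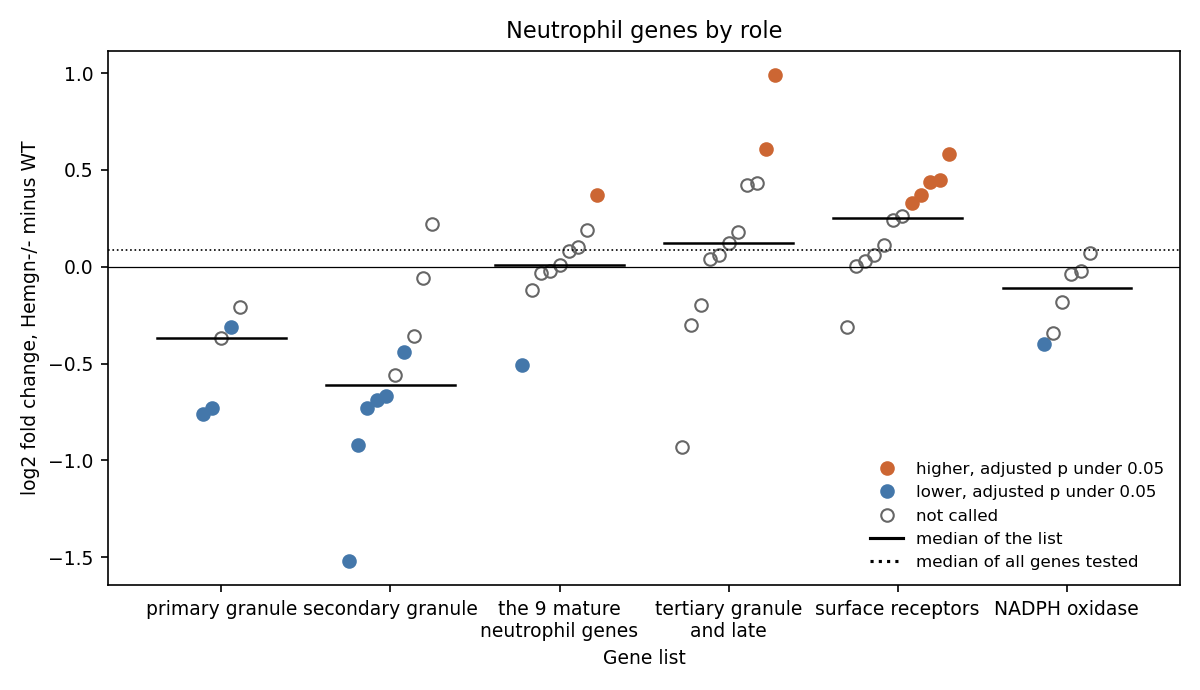
Log2 fold change of each tested neutrophil gene by role, with filled points for an adjusted p under 0.05, a bar at each list's median and a dotted line at the median of all genes tested. Medians run from −0.61 for secondary granule genes through 0.0065 for the 9 mature genes to 0.25 for surface receptors.

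The sign of most small differences moved with the processing. Over all genes the median log2 fold change moved from 0.087 to 0.0068 when libraries were scaled by median ratios, and to 0.16 when each was brought to the same FPKM total. Cd177 stayed between −0.61 and −0.42 and Fpr1 between 0.27 and 0.46 under all 15 alternatives, whereas Mmp8, Mmp9, Retnlg, Padi4 and Itgam each changed sign under at least 1 scaling or left-out library. Fpr2 and Mmp25 kept theirs under all 15. Quantile normalization, which gives each rank the same value in every library, moved Mmp8 to 0.43 (adjusted p = 0.000264), and over its alternatives the adjusted p of Mmp8 ran up to 0.984.

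**Figure D5:**
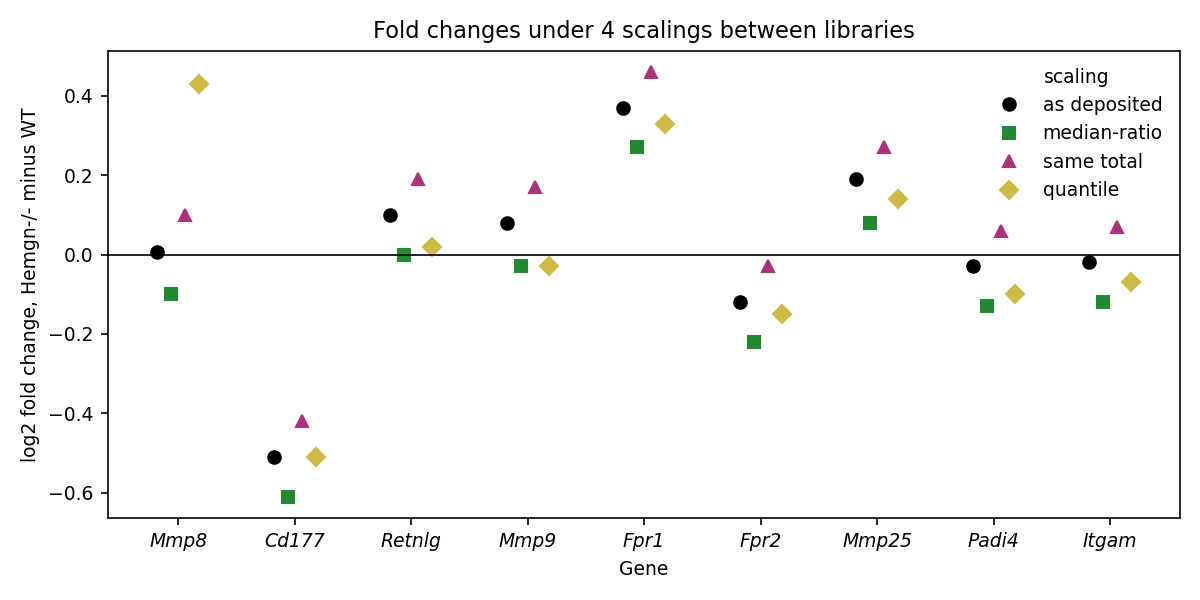
Log2 fold change of each member on the deposited FPKM values and under 3 other normalizations between libraries. Cd177 stays below 0 and Fpr1 above 0 under all 4, and Mmp8 moves to 0.43 under quantile normalization alone.

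Markers of other cell types also differed between the genotypes. Erythroid genes were lower in 3 of 6 tested, with a summed level of 450 to 535 FPKM in WT and 27.3 to 42.5 FPKM in Hemgn-/- libraries, and eosinophil genes in 3 of 7 (281 to 336 and 85.9 to 98.8 FPKM, most of it from Prg2, with the other 4 genes at fold changes above 0 and a list median of 0.11). Higher genes were found for B cells (3 of 7, 1160 to 1221 and 1380 to 1554 FPKM), T and NK cells (3 of 8, 200 to 220 and 233 to 261 FPKM) and plasmacytoid dendritic cells (2 of 6, 147 to 175 and 165 to 201 FPKM). Of the stem and progenitor list 1 of 9 was higher, Cd34, which is too few to be set apart from the 4.37% of all genes tested. Its fold changes were above 0 for 5 genes and below 0 for 4, among them Kit (6.14, 6.36 and 7.24 against 5.50, 5.90 and 5.65 FPKM, adjusted p = 0.398 from limma). Of 6 basophil and mast cell genes 0 passed in limma, 2 with an unadjusted p under 0.05 (480 to 529 and 506 to 536 FPKM). The part of these cells in the neutrophil values was not tested.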

How the data were processed

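RNA-seq libraries of donor cells from 3 WT and 3 Hemgn-/- samples were grouped by the genotype in the sample labels, and columns were matched to samples by letter and number (0 columns left unmapped). The study's methods call the replicates biological. The deposited table holds FPKM values by gene, with a column for each library. The submitters' processing notes list GRCm38, HISAT2 2.1.0, Bowtie2 2.2.3, TopHat2 and HTSeq 0.6.0, without roles, while the methods describe amplified Smart-Seq2 cDNA, so that fragments are not independent molecules, and the labels name a TruSeq kit.

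Symbols, coordinates and exon lengths came from GENCODE M21 (24921 of 24965 identifiers matched). Fragments were recovered from FPKM steps. Of 13472 genes with at most 100 fragments, 95.7% came out whole in all libraries, within 0.05, as did 7 of the 9 members. Retnlg came out whole in 1 library and Mmp25 in 2, so the lengths or counts behind their FPKM may differ from those used here. For genes above 1 FPKM in any library, limma 3.58.1 (R 4.3.3, lmFit and eBayes with trend) was run on log2(FPKM + 1), two-sided, which understates changes of low genes. On simulated data with 200 genes changed 2-fold, 118 were called, among them 83 of 97 above 5 FPKM, along with 4 unchanged genes. Other steps used Python 3.11.15, scipy 1.17.1 and matplotlib 3.10.9. Alternatives were 3 other scalings, a pseudocount of 0.1, 2 other filters, eBayes without a trend, voom on the fragments, a replicate block and leaving out each library.

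The members, lists and tests were chosen with earlier results of these data known, and the ratios within a library were not planned. All 9 members were named, with Hemgn. From each neutrophil list the called genes could be named, or else the 3 most abundant, and from other lists the first markers; Lyz2, Prg2, Ltb4r1, Wfdc21, Trem3, Lrg1, Ly6g, Itgb2, Timp2, Mmp13, Padi2 and Fpr3 were chosen after their values were seen. Protein sequences were not used here, and 1 gene is not reported here.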

Additional observations from a re-analysis of the deposited data

How the results depend on the processing

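Of the members, Cd177, Fpr1, Fpr2 and Mmp25 kept their direction under all 15 alternatives. After median-ratio scaling, the log2 fold changes of Mmp8, Mmp9 and Retnlg were −0.10, −0.03 and −0.0024, the median of the 9 was −0.10, 0 members and 4 other neutrophil genes were higher. After rescaling to the same total, Padi4 and Itgam were at 0.06 and 0.07, the median of the 9 was 0.10 and 12 other neutrophil genes were higher. After quantile normalization, Mmp9 was at −0.03 and 2 members were higher. Of all genes tested, 600 were higher and 287 lower, against 341 and 386, 1062 and 238, and 369 and 350 under these 3 scalings.

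Without the filter, which puts 24965 genes under the adjustment, 0 members were called in either direction, 4 other neutrophil genes were higher and 4 lower, 466 genes were called in all, and Hemgn (−1.37) had an adjusted p of 0.0613. Without the variance trend, 0 members, 2 and 5 other neutrophil genes and 390 genes in all were called. The cause was not tested.

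With each library left out in turn, 0 to 1 members were higher and 1 lower, 3 to 8 other neutrophil genes were higher and 6 to 10 lower, and 373 (without Hemgn-/- replicate 3) to 688 genes were called in all. The count was 470 and 494 with the first or the third WT library left out, and 525 with the second Hemgn-/- library left out. The median of the 9 ran from −0.03 to 0.07, Mmp8 from −0.03 to 0.06, Itgam from −0.11 to 0.07, Padi4 from −0.05 to 0.00079 and Hemgn from −1.58 to −1.20.

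Same-numbered libraries of the 2 groups did not deviate together over all genes (correlations −0.0428, −0.00936 and 0.0111). This check cannot show whether they shared a day or a preparation. With the replicate block, 636 genes were called in all, 1 member higher and 1 lower, as without it. With 3 libraries a group, no exact test of a single value can go below 0.1.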
